A study of Mus musculus with 2 samples.

Results

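Chromatin accessibility was described around 10 genes of the Nodal and BMP pathways in mouse embryonic stem cells (mESCs). The genes were *Nodal*, *Lefty1*, *Lefty2*, *Tdgf1*, *Smad7*, *Bmp4*, *Id1*, *Id2*, *Id3* and *Acvr2b*, of 21938 protein-coding genes in the GENCODE annotation of mm10. For each gene, the deposited ATAC-seq peak over the gene start and all peaks from 20 kb upstream to 20 kb downstream of the gene were collected. These windows hold 70 different peaks of 116782 in the list. One of them lies in the windows of both *Lefty1* and *Lefty2*, which are 35918 bp apart on chromosome 1.

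ATAC-seq uses the transposase Tn5 to cut and tag accessible DNA. The cells were EHMT2-dTAG-mcherry ESCs of a BL6/129 hybrid strain, in which a degron tag, HA tags and an mCherry reporter were inserted at the end of endogenous *Ehmt2*, the gene of a histone H3K9 methyltransferase. They were grown with serum and leukemia inhibitory factor on mouse embryonic fibroblast feeders and received the vehicle DMSO for 24 h, so the tagged EHMT2 was not depleted. Cells of 2 independent clones were assayed, with 50000 cells each, and the deposited list was called on both clones merged. No second condition and no spread between clones can therefore be given, and no differences were tested. The list gives the fold enrichment at each summit, which is the fragment pileup plus 1 over the local background plus 1, and a −log10 q-value. The number of fragments over each summit was calculated back from these values, and its exact Poisson 95% interval is given as counting error only.

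Nodal is a ligand of the TGF-β family that signals through activin receptors, the co-receptor encoded by *Tdgf1* and the effectors SMAD2 and SMAD3, which act on DNA together with SMAD4 and partners such as FOXH1. Its targets include its own gene and those of its inhibitors, *Lefty1* and *Lefty2*. BMP ligands such as BMP4 act through SMAD1 and SMAD5, whose best known targets in mESCs are the *Id* genes, encoding inhibitors of differentiation factors of the basic helix-loop-helix class. Accessibility of a gene's surroundings is not its expression, which was not measured in this assay. In a bulk assay, open chromatin in few cells and weakly open chromatin in all cells cannot be told apart.

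A short DNA word that matches the FOXH1 motif, AATCCACA, occurred in 2 of the 70 peaks within 300 bp centred on the summit, 2.86% with an exact binomial 95% interval of 0.348 to 9.94%, and 0.999% of all peaks, which lies within this interval, hold it there. When whole peaks were searched, it was again in 2 of the 70, beside 2.19% of all peaks. These peaks lie upstream of *Lefty1* and *Lefty2*. The sequences of mm10 around the matches are shown because both peaks are the highest of their window among those that cover no gene start. Both are written as the plus strand reads, and capitals mark AATCCACA or its reverse complement.

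*Lefty1*, 10.1 kb upstream, chr1:180924797-180924937: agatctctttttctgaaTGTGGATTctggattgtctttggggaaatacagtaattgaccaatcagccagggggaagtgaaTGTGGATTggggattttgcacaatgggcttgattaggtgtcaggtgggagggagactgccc
*Lefty2*, 4.3 kb upstream, chr1:180888876-180889001: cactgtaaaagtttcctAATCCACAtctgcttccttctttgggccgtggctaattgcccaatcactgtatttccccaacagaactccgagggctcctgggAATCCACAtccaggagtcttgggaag

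Each stretch holds 2 matches, with starts 63 bp apart at *Lefty1* and 83 bp apart at *Lefty2*. At *Lefty1* they lie 93 and 30 bp to the left of the summit, and at *Lefty2* 62 and 145 bp to its right. The 2 stretches also share a run of 15 bases on opposite strands, ttggggaaatacagt as read at *Lefty1*, which lies between the FOXH1 matches in both. The *Lefty2* peak further holds a palindromic SMAD3 and SMAD4 word, GTCTAGAC, 488 bp to the right of its summit, in capitals in the following stretch.

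*Lefty2*, chr1:180889296-180889351: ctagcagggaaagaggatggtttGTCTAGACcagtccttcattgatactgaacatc

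Over the windows of all 10 genes, AATCCACA occurs 20 times, and 4 of these occurrences are in peaks, all 4 in the *Lefty1* and *Lefty2* peaks just shown. Peaks cover 9.87% of the bases in these windows. *Nodal* has an autoregulatory enhancer with FOXH1 sites in its first intron. Both AATCCACA words of the *Nodal* window lie within the gene and outside its exons, 1327 and 2121 bp downstream of the gene start. They lie outside all peaks, at 446 and 1240 bp from the nearest one. Whether these words belong to that enhancer was not examined.

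Peaks covered the gene start of 7 of the 10 genes, and 59.2% of all protein-coding gene starts were covered. The genes without such a peak were *Lefty1* (chr1:180935022-180938400), *Lefty2* (chr1:180893108-180899103) and *Id2* (chr12:25093799-25097140, minus strand). Each of the 3 has a peak over another annotated transcript start within the gene, so that all 10 genes had a peak over some transcript start, beside 66.6% of protein-coding genes. Under a stricter call, where the −log10 q-value had to reach 10, 5 of 10 gene starts were covered, beside 45% of all. A summit lay within 500 bp of the start in 5 of 10 genes, beside 57.4% of all.

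The start of *Acvr2b* (chr9:119402118-119434995), which encodes a type II receptor for Nodal and activins, had a fold enrichment of 8.27, from 40 fragments with an interval of 28.6 to 54.5. At *Id1* (chr2:152736251-152737410) the fold enrichment was 7.57, from 37 fragments (26.1 to 51.0). These 2 starts were the highest, and their intervals overlapped. *Tdgf1* (chr9:110939603-110946158, minus strand) had the most fragments at its start, 52 (38.8 to 68.2), in the widest peak of the set, 2402 bp, with its summit 1270 bp upstream of the start. The local background there was also the highest of the 7, 7.62 fragments, so that its fold enrichment was 6.15. *Id3* (chr4:136143497-136145755) followed with 6.11 from 26 fragments (17.0 to 38.1).

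*Smad7* (chr18:75367529-75395935), the gene of an inhibitory SMAD that is induced by both branches, had a fold enrichment of 5.60 at its start, from 38 fragments (26.9 to 52.2). The 2 ligand genes had the lowest values. *Nodal* (chr10:61417972-61425338) had a fold enrichment of 3.87 from 22 fragments (13.8 to 33.3), and *Bmp4* (chr14:46383520-46390669, minus strand) had 2.64 from 14 fragments (7.65 to 23.5). Every pair of neighbours in this order overlapped in the interval of fold enrichment. The interval of *Acvr2b*, 5.96 to 11.2, did not overlap with those of *Nodal*, 2.49 to 5.78, or *Bmp4*, 1.52 to 4.31, counting error being the only error taken into account.

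**Figure D1:**
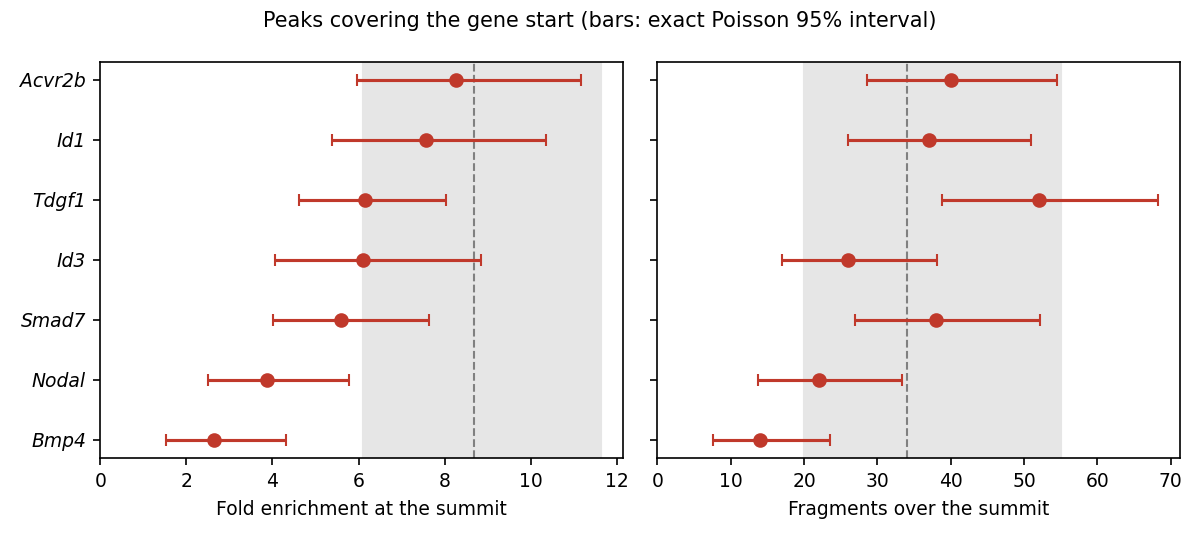
Fold enrichment (left) and fragments over the summit (right) of the peaks covering the gene start of 7 genes. Points are the merged list's values, bars are exact Poisson 95% intervals, the dashed lines are the medians over all covered protein-coding gene starts (8.68 and 34 fragments), and the grey bands span their quartiles. All 7 points lie to the left of the median in fold enrichment, whereas 4 of 7 lie to the right of it in fragments.

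Over all covered protein-coding gene starts, the median fold enrichment was 8.68, with quartiles of 6.12 and 11.6. None of the 7 genes lay above this median, and the median of the 7 was 6.11. In fragments, the 7 starts had a median of 37, against 34 over all covered starts, and 4 of 7 lay above that value. The local background had a median of 4.68 fragments at the 7 starts and of 2.92 at the start peaks of all protein-coding genes. No control library is among the samples, so this background comes from the same libraries, and fragments of neighbouring peaks can enter it. Its part in the low fold enrichments was not tested. *Bmp4* was at the low end on both scales, since 0.139% of covered starts had a lower fold enrichment and 13.1% had fewer fragments. Start peaks of the 7 genes had a median GC content of 59.6%, against 60.5% for all protein-coding genes. Their ratio of observed to expected CpG dinucleotides ranged from 0.409 at *Tdgf1* to 0.825 at *Smad7*, with medians of 0.631 for the 7 and 0.718 for all.

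All 10 windows had more peaks per 10 kb than the median window of protein-coding genes, and 50% of all windows did by construction. The median over the 10 genes was 1.38 peaks per 10 kb, against 0.638 over all genes, and every one of the 10 lay above the upper quartile of 0.953. *Id1* had the densest window, with 10 peaks and 2.43 peaks per 10 kb, and 99.9% of genes had a lower density. *Bmp4* followed with 8 peaks and 1.70 per 10 kb. *Lefty2* had 7 peaks and 1.52 per 10 kb, *Nodal* 7 and 1.48, and *Id2* and *Lefty1* 6 each and 1.38. *Smad7*, *Tdgf1*, *Id3* and *Acvr2b* had 1.32, 1.29, 1.18 and 0.961, so that *Acvr2b*, with the longest window, was the lowest.

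**Figure D2:**
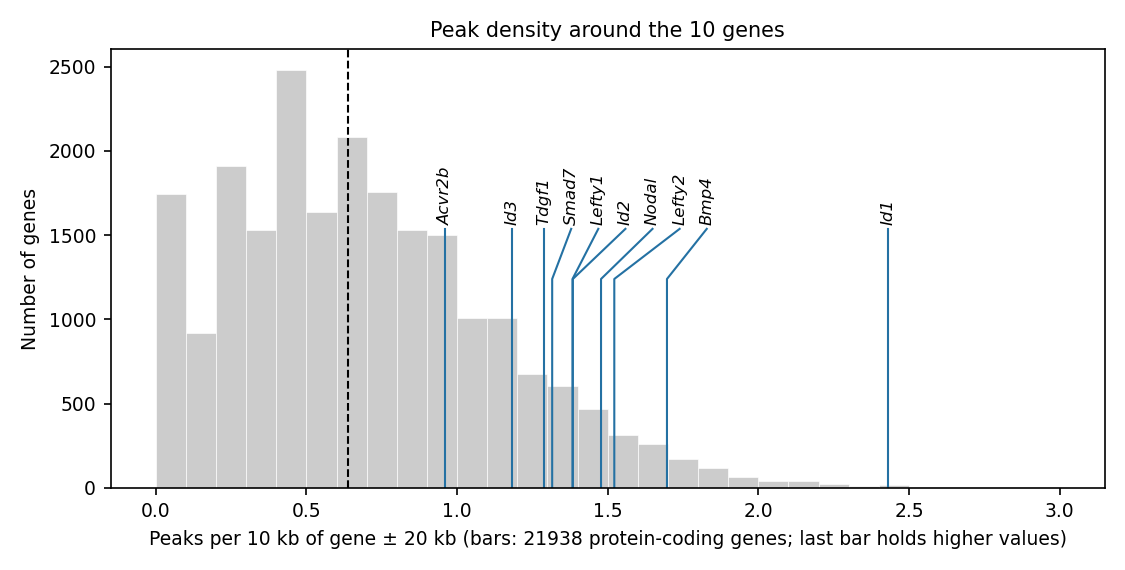
Peaks per 10 kb of the gene with 20 kb on either side. Grey bars count the 21938 protein-coding genes, the dashed line is their median of 0.638, and blue lines mark the 10 genes, which lie between 0.961 (*Acvr2b*) and 2.43 (*Id1*).

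The 10 windows are from 41.2 to 72.9 kb long. Among the 13905 protein-coding genes with windows in this range, the median was 0.703 peaks per 10 kb, all 10 genes lay above it, and 9 lay above the upper quartile of 1.06. Of the 70 peaks, 59 covered no gene start, 84.3%, beside 87.8% of all peaks. Counting only such peaks, all 10 genes were above the median of 0.439 per 10 kb and 9 were above the upper quartile of 0.697. With the stricter q-value, all 10 genes were above the median of 0.179, but 5 were above the upper quartile of 0.324. *Nodal*, *Bmp4* and *Id3* had 1 such peak each, and windows of similar length were not compared at this q-value. Of the 70 peaks, 18 reached that q-value, 25.7%, beside 22.2% of all peaks.

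In 7 of the 10 windows, the peak of highest fold enrichment covered no gene start, beside 41% of the windows of protein-coding genes. Ranked by fragments, this was so in 4 windows, beside 38.3%, and at *Id2* that peak covers another transcript start of the gene. By fold enrichment, it was so in 6 windows when peaks over any transcript start were counted as start peaks, beside 34.6%. It was also so in 6 when only peaks at or above the stricter q-value were ranked, beside 31.5%. The 59 peaks covering no gene start had a median fold enrichment of 4.11 and a median of 15 fragments. All 102492 such peaks of the list had medians of 3.70 and 8 fragments, and those within 20 kb of a protein-coding gene had 3.70 and 9.

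**Figure D3:**
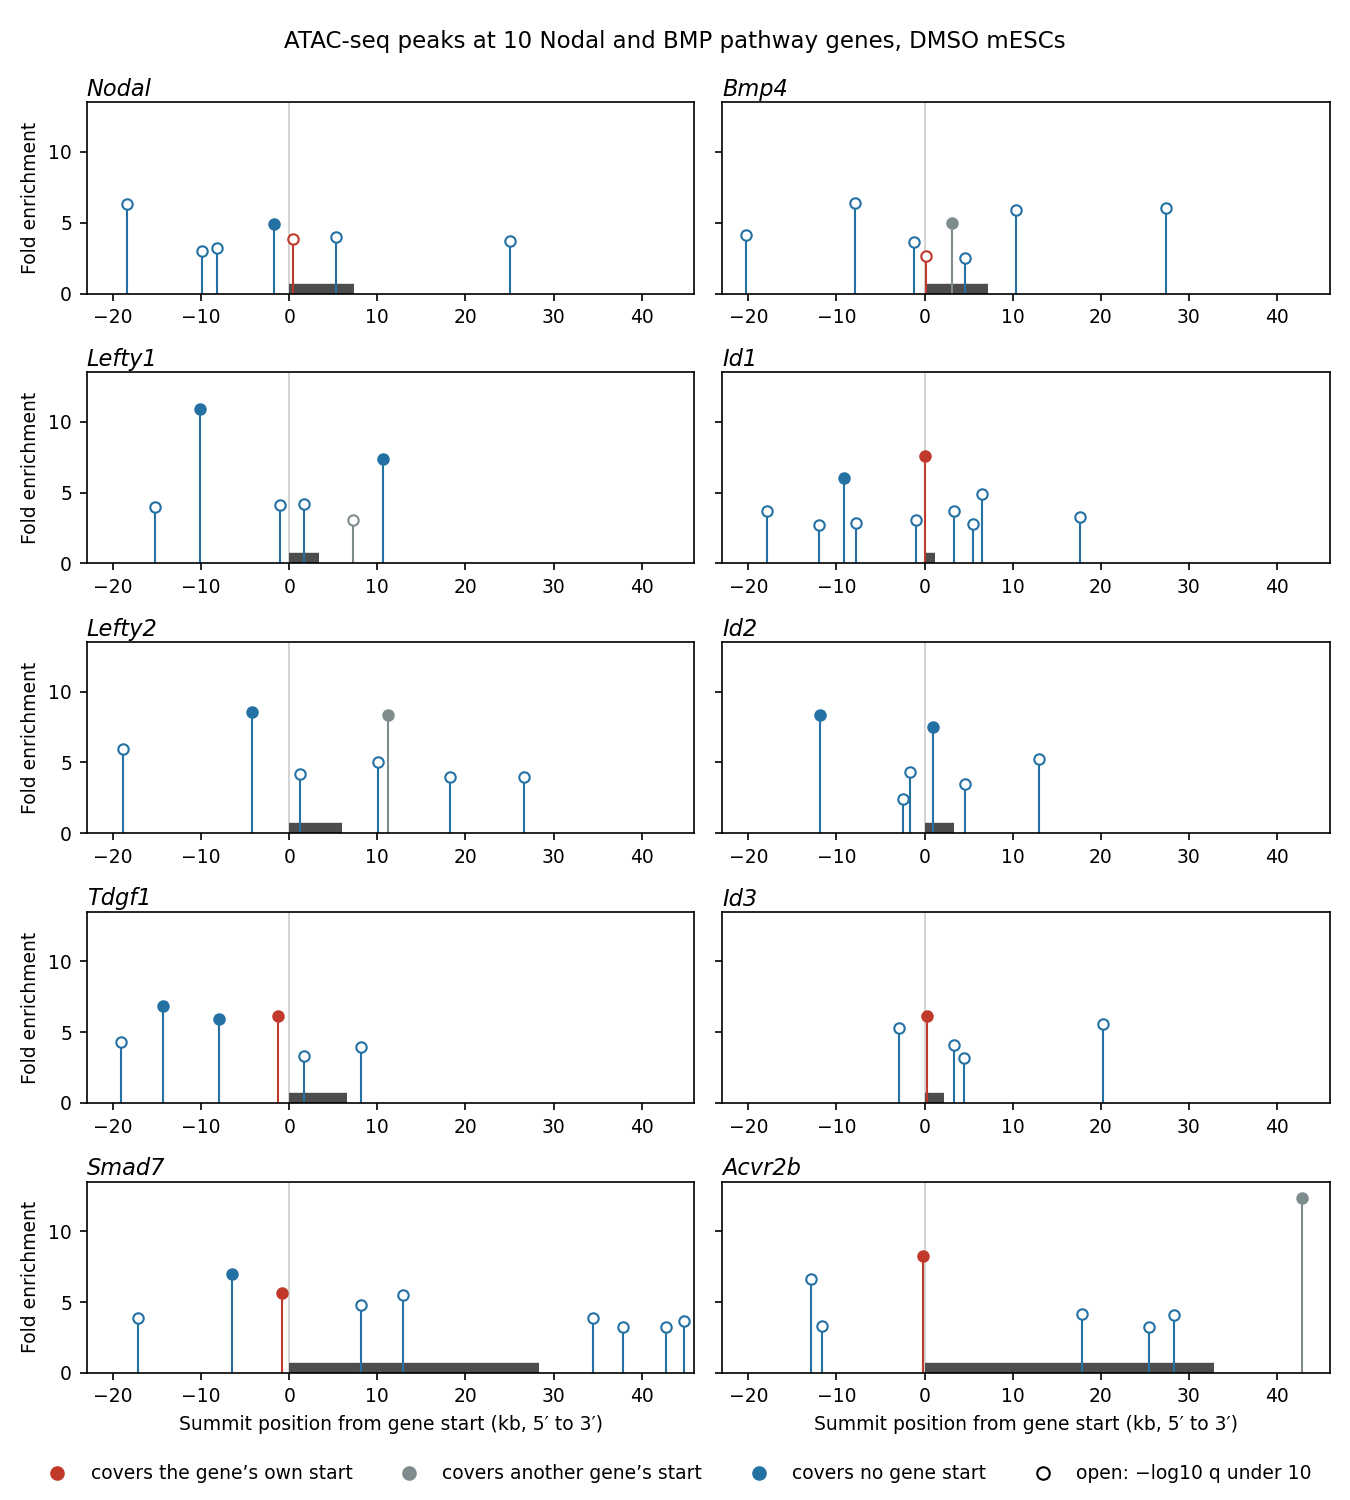
Fold enrichment of each peak (vertical axis) against the position of its summit relative to the gene start, in kb in the direction of transcription, for each gene. Red marks the peak over the gene's own start, grey a peak over another gene's start and blue all other peaks, open circles have a −log10 q-value under 10, and the dark bar is the gene. The tallest blue peaks lie upstream of *Lefty1* (10.9), *Lefty2* (8.52) and *Id2* (8.32).

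Of the 10 genes, the inhibitor genes *Lefty1* and *Lefty2* had the highest such peaks in fold enrichment, though not in fragments. The peak 10115 bp upstream of the *Lefty1* start (chr1:180924631-180925417) had a fold enrichment of 10.9, from 47 fragments (34.5 to 62.5), which was higher than in 93.9% of all peaks. The peak 4277 bp upstream of the *Lefty2* start (chr1:180888194-180890098) had a fold enrichment of 8.52, from 59 fragments (44.9 to 76.1), and was 1905 bp wide. These intervals of fragments overlapped with each other. Neither overlapped with the interval of the peak nearest to the respective gene start. At *Lefty1* the nearest peak, whose summit is 1074 bp upstream, ends 176 bp before the start and rested on 17 fragments (9.90 to 27.2). At *Lefty2* the nearest one begins 936 bp downstream of the start and rested on 14 (7.65 to 23.5).

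That *Lefty2* peak and the *Lefty1* peak at 1698 bp downstream of the start both have their summit in a coding exon, and they are copies of one another, with 90.4% identity over 698 bp. Reads that match both copies equally well could stem from either gene, as reads matching several places were written at 1 best place, with ties at random. The share of such reads in these 2 peaks was not measured. The *Lefty2* peak had a fold enrichment of 4.19 from 14 fragments, and the *Lefty1* peak had 4.17 from 17. The upstream peaks of the pair had no other match in the genome of at least 100 bp with 90% identity, searched from bases outside repeats. *Lefty1* also had a peak 10625 bp downstream of its start, inside *Tmem63a*, with a fold enrichment of 7.38. That peak covers a transcript start of *Tmem63a*.

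The 7 peaks in the window of *Nodal* ranged in fold enrichment from 3.03 to 6.35 and in fragments from 7 to 27. The highest fold enrichment, 6.35, lay 18465 bp upstream and rested on 15 fragments over a background of 1.52. The most fragments, 27 (17.8 to 39.3), lay in a peak 1768 bp upstream (chr10:61415768-61416403) with a fold enrichment of 4.91, the one *Nodal* peak with a −log10 q-value above 10. Its interval overlapped with that of the start peak, 22 fragments (13.8 to 33.3). A further peak had its summit in a coding exon, 5284 bp downstream of the start, with 14 fragments (7.65 to 23.5).

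At *Tdgf1*, the co-receptor gene, 3 peaks from 1.3 to 14.3 kb upstream passed the stricter q-value. One is the start peak, and the others lie inside the neighbouring gene *Lrrc2*, 7958 and 14332 bp upstream of the *Tdgf1* start, with fold enrichments of 5.93 and 6.82 from 29 fragments each (19.4 to 41.6). The farther one covers a transcript start of *Lrrc2*. The start peak holds the POU octamer ATGCAAAT, read by OCT4 among others, 564 bp to the right of its summit. The peak 1074 bp upstream of *Lefty1* also holds that word. The stretches at *Tdgf1* and *Lefty1* are shown with the octamer or its reverse complement in capitals.

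*Tdgf1*, chr9:110947968-110948028: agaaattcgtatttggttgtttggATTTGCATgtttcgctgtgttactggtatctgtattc
*Lefty1*, chr1:180933983-180934043: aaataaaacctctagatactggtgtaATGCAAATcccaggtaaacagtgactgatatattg

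Within 300 bp centred on the summit, 1 of 70 peaks had the octamer, beside 3.01% of all peaks. Of the *Tdgf1* start peak, 201 bp have a second match on chromosome 16 with 96.5% identity, 8.37% of its length.

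At *Bmp4*, the peak over the gene start was the second lowest of the 8 peaks in fold enrichment. The highest fold enrichment, 6.36, lay 7867 bp upstream and rested on 14 fragments (7.65 to 23.5), the same number as at the start, over a background of 1.36 instead of 4.68. The most fragments, 27 (17.8 to 39.3), lay 3157 bp downstream of the start, in an intron of *Bmp4*, where a peak with a fold enrichment of 4.95 covers another *Bmp4* transcript start and the start of *Gm15222*. That interval and the one at the gene start overlapped. Peaks further downstream, at 10389 and 27396 bp, had fold enrichments of 5.88 and 6.01.

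The 3 *Id* genes, targets of BMP signalling, had 21 peaks in all. The peak over an internal transcript start of *Id2* (chr12:25095892-25096511), 914 bp downstream of the gene start, had a fold enrichment of 7.46 from 59 fragments (44.9 to 76.1). This was the highest number of fragments in the 10 windows, shared with the upstream peak of *Lefty2*. A peak 11902 bp upstream of *Id2* had the higher fold enrichment, 8.32, but from 17 fragments (9.90 to 27.2). At *Id1*, the strongest peak besides the start was 9187 bp upstream, with a fold enrichment of 6.01 from 27 fragments. At *Id3* it was 20248 bp downstream, with 5.55 from 11 fragments (5.49 to 19.7).

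GGCGCC, a palindromic word that SMAD1 or SMAD5 bind together with SMAD4, occurred near the summit in 10 of the 70 peaks, 14.3% with an exact binomial 95% interval of 7.07 to 24.7%, beside 6.81% of all peaks. Of these 10 peaks, 8 belong to the *Id* genes, which have 21 peaks, and 2 to the other 49. *Id1* and *Id3* had 3 each and *Id2* had 2. When whole peaks were searched, the word was in 17 of the 70, 24.3%, beside 12.2% of all peaks. The peaks added by this search lie at *Id2* and *Id3* and also at *Nodal*, *Lefty1*, *Tdgf1*, *Smad7* and *Acvr2b*, so the word is not confined to the *Id* genes. The word consists of G and C only. The *Id* peaks had a median GC content of 57.6%, the other 49 peaks 54.3% and all peaks 49.6%, and the part of GC content in this count was not tested. The word was near the summit in 23.4% of all peaks over gene starts and in 4.50% of the others. The nearest upstream matches that lie in peaks at the *Id* genes are shown with the word in capitals, as these peaks cover no gene start. Matches outside peaks were not considered here.

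*Id1*, 1.0 kb upstream, chr2:152735125-152735185: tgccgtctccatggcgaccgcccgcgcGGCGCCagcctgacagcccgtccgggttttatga
*Id2*, 1.7 kb upstream, chr12:25098843-25098943: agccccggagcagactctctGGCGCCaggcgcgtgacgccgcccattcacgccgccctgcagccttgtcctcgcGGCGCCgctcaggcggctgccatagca
*Id3*, 2.9 kb upstream, chr4:136140511-136140571: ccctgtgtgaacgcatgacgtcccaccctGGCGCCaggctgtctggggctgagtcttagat

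The peak 1021 bp upstream of *Id1* had a fold enrichment of 3.08 from 15 fragments (8.40 to 24.7). The one 1703 bp upstream of *Id2*, with 2 matches 54 bp apart, had 4.33 from 30 fragments (20.2 to 42.8). The one 2936 bp upstream of *Id3* had 5.31 from 16 fragments (9.15 to 26.0). None of the 3 was the highest peak of its window.

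The remaining words stand for factors of both pathways and of pluripotency. The short SMAD3 and SMAD4 word CAGAC occurred in 44 of 70 peaks, 62.9% (50.5 to 74.1%), beside 54.7% of all peaks. GTCTAGAC occurred in 0 of 70 near the summit, beside 0.249%. When whole peaks were searched it occurred in 2, those upstream of *Lefty2* and over the start of *Smad7*, beside 0.570% of all peaks. The KLF word GGGTGTGG occurred in 3 peaks, beside 4.35%, and the STAT word TTCCNGGAA in 1, beside 1.05%. The ESRRB word TCAAGGTCA and CATTGTNAT, the start of the joint SOX2 and OCT4 element, were in 0 of 70 within the 300 bp, beside 1.05% and 1.14% of all peaks, and the exact binomial 95% interval of 0 of 70 reaches 5.13%. All words were searched on both strands, and a match is a match of letters and not a measured binding site.

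*Smad7* had 9 peaks, of which 2 passed the stricter q-value. Its strongest peak was 6501 bp upstream, with a fold enrichment of 6.95 from 25 fragments (16.2 to 36.9), which overlapped with the 38 fragments (26.9 to 52.2) of the start peak. The start peak also covers the start of *Gm20544*. Peaks in introns, 8186 and 12862 bp downstream of the start, had fold enrichments of 4.81 and 5.49. *Acvr2b* had 3 peaks within the gene, with fold enrichments from 3.24 to 4.16 and at most 10 fragments. A peak inside *Xylb*, 12901 bp upstream, had 6.61 from 15 fragments (8.40 to 24.7). The highest fold enrichment in its window, and of all 70 peaks, was 12.3 over the starts of *Exog* and *4930516B21Rik*, 42870 bp downstream of the *Acvr2b* start.

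None of the 59 peaks covering no gene start consisted of repeat-masked bases to 50% or more, beside 23.9% of all such peaks. The exact binomial 95% interval for 0 of 59 reaches 6.06%. Among the 63612 peaks that cover no gene start and lie within 20 kb of a protein-coding gene, the share was 16.0%. The highest repeat content was 49.5%, at the peak 25038 bp downstream of the *Nodal* start inside *Eif4ebp2*, and 4 of the 59 reached 40%. With 10% of bases as the limit, 54.2% of the 59 peaks were repeat-containing, beside 65.1% of all and 59.5% of those within 20 kb of a protein-coding gene. The strongest peaks upstream of *Lefty1* and *Id2* had no repeat-masked base, and that upstream of *Lefty2* had 15.1%.

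**Figure D4:**
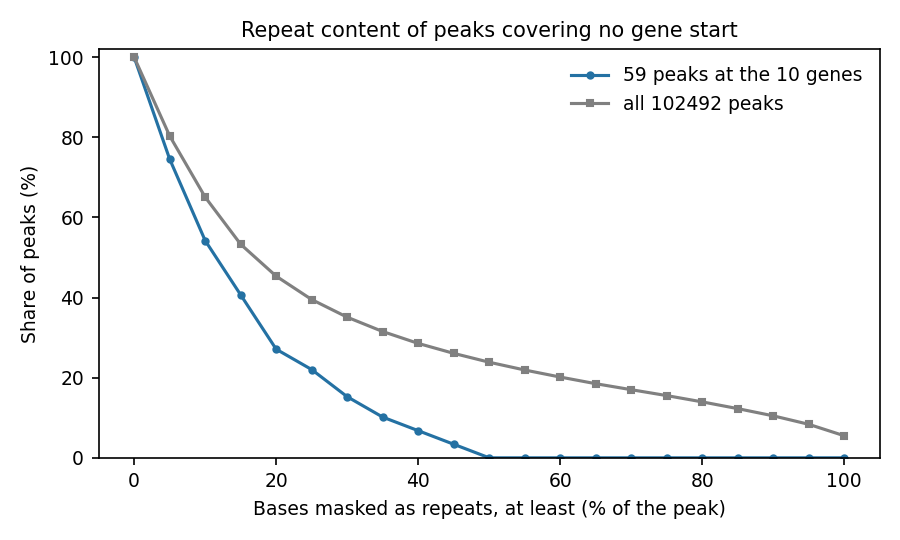
Share of peaks covering no gene start (vertical axis, %) in which at least the given percent of bases is masked as repeats (horizontal axis), for the 59 peaks at the 10 genes and all 102492 such peaks. The line of the 59 peaks reaches 0 at 50%, where the line of all peaks is at 23.9%.

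In the wider pathway, 61 of 78 genes had a peak over the gene start, 78.2%, and 54 of the 68 without the 10 genes did, beside 59.2% of all protein-coding genes. The starts of all 8 *Smad* genes were covered, as were those of 11 of 12 receptor genes, all but *Amhr2*. Of the ligand genes, 15 of 21 were covered, and *Inha*, *Inhbb*, *Bmp5*, *Bmp10*, *Gdf2* and *Gdf5* were not. Of the extracellular inhibitors, 8 of 13 were covered. Besides *Lefty1* and *Lefty2*, the genes without a start peak in this group were *Fstl3*, *Cer1* and *Dand5*.

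Of the targets, 9 of 11 were covered, with *Id2* and *Msx2* as the exceptions, and of the cofactors and inhibitors inside the cell 8 of 9, all but *Ski*. *Tdgf1* was covered and its relative *Cfc1* was not, and of the proteases that cleave the ligand precursors, *Pcsk6* was covered and *Furin* was not. Fold enrichment over the covered starts of the list had a median of 6.41. Among the high values were *Tgfbr1* (12.8) and *Smad4* (12.2), and the lowest were at *Gdf3* (2.36), *Bmp4* (2.64) and *Acvrl1* (2.94). *Bmp4* was thus the second lowest of the 61.

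Markers were used to check the labelled cell type. Of 8 genes of embryonic stem cells, 6 had a peak over the gene start, from *Pou5f1* with 17 fragments and a fold enrichment of 2.83 to *Zfp42* with 151 fragments and 15.9, and *Sox2* and *Esrrb* had none there. Of 6 fibroblast markers, *Thy1* had a start peak, with 11 fragments. Of 5 endoderm markers, *Gata6* and *Sox17* did, with 24 and 21 fragments. Over all protein-coding genes, 59.2% of gene starts were covered. Peaks over any transcript start were present at 7 of 8, 3 of 6 and 4 of 5 genes of these lists, beside 66.6% of protein-coding genes. Beside these shares, counts from lists this short cannot settle the cell type. How much of the signal at the 10 genes came from feeder cells or from differentiated cells was not tested.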

How the data were processed

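ATAC-seq of 2 clones of EHMT2-dTAG-mcherry ESCs after 24 h of DMSO was analysed. After trimming by BBMap, the authors used STAR 2.7.10 for alignment to mm10 (reads of several places at 1 best place). They then removed duplicates with Picard 2.26.0 and high signal regions with SAMtools 1.14, and shifted fragments by 4 and 5 bp for Tn5. Peaks were called with MACS2 2.2.6 on the merged clones, with a q-value limit of 0.05. Whether this limit was set at the call or by a later filter is not stated for ATAC-seq. The deposited fold enrichment is a ratio, both the −log10 p-value and the −log10 q-value were deposited as at the summit, and the deposited score, 10 times the −log10 p-value, was not used. Library totals were not used here, so the depth is known through the fragments of each peak only. These were calculated back from fold enrichment and p-value and came out whole, within a relative 0.0001, for 116778 peaks. In 4836 simulated peaks, 100% were recovered.

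Genes came from GENCODE vM21, sequences and repeat masking from the GRCm38.p6 reference, which is the same build. Peaks outside chromosomes 1 to 19, X and Y were left out. The genes, the pathway and marker lists, the words and the alternatives were chosen with earlier results of these data known. The text names all 10 genes, with the start peak and the highest peak that covers no gene start, further peaks chosen after their values were seen, and of the pathway list the 3 highest, the 3 lowest and the uncovered genes, apart from items that are not reported here. No tests were made, as there is 1 merged list. Matches to other places were searched with BLAST 2.17.0 at 90% identity and at least 100 bp. Calculations used Python 3.11.15, NumPy 2.4.6, pandas 2.3.3 and SciPy 1.17.1.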

Additional observations from a re-analysis of the deposited data

How the results depend on the processing

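The number of covered gene starts, in the 10 genes and in the pathway list, the median fold enrichment at covered starts and the number of windows denser than the median window moved by no more than 1.5 times or by less than their interval under the alternatives tried for them. Of the 70 peaks in the windows, 18 had a −log10 q-value of 10 or more, and windows of 50 kb on either side held 130. Ranked by fragments, an alternative added after the data had been seen, the highest peak covered no gene start in 4 windows instead of 7. With 10% in place of 50% of bases, the share of repeat-masked peaks was 54.2% instead of 0%. No paired analysis was possible because the 1 deposited list merges both clones. Fragment numbers carry counting error only. Most peaks that cover no gene start rest on few fragments, with a median of 15 in these windows.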

Other observations

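Among all 116777 peaks on chromosomes 1 to 19, X and Y, 10 had at least 2 AATCCACA words within 300 bp centred on the summit. Of the 78 pathway genes, *Lefty1* was the 1 with such a peak within 20 kb, the peak 10.1 kb upstream. The upstream peak of *Lefty2* also holds 2 such words, but it was not counted here. Its second word starts 145 bp from the summit and runs past the edge of the 300 bp. Of the 10 peaks, 2 were repeat-masked to at least 50%.

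Around the pathway genes outside the set of 10, the highest 2 peaks that cover no gene start were at *Bmpr1b*, a type I BMP receptor gene, with a fold enrichment of 18.4 from 86 fragments 320.1 kb downstream of the gene start, and at *Pcsk6*, with 14.1 from 65 fragments 11989 bp downstream. The upstream peak of *Lefty1* ranked 8 and that of *Lefty2* ranked 17 in this order of highest such peaks. *Gdf3*, a relative of Nodal expressed in mESCs, had the lowest fold enrichment at its start in the list, 2.36, and a peak 14.6 kb upstream with 11.1 from 68 fragments.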
